A study of Mus musculus with 3 samples.

Results

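The genes of the nuclear lamina and its closest membrane and chromatin partners were followed along a polysome gradient in lymph node stromal cells with and without siRNA against Eif4g3. The 7 genes are the lamins Lmnb1, Lmnb2 and Lmna, the inner nuclear membrane proteins Emd and Lbr, the lamina-associated polypeptide gene Tmpo, and Banf1. They were taken by gene name from the non-control spots of each array, and cover 13 of 41174 probes and 7 of 27745 gene names. The group was selected on the heavy polysome ratio of Lmnb1, which was among the lowest of that array. Its ratios, and those of its partners on the same arrays, are therefore a description and not a test.

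The cells, stroma from lymph nodes of BALB/c mice kept in culture, were transfected with 400 pmol of either a control siRNA or an Eif4g3 siRNA, given fresh medium at 24 h and harvested at 48 h. Both arms therefore carried an siRNA and the same transfection reagent, and no untransfected cells were analysed here. For each siRNA, 7 plates were pooled, lysed and run on a sucrose gradient from 10% to 60%, and the gradient was pooled into a top fraction, light polysomes and heavy polysomes. Each fraction was hybridised to 1 array of 2 colours, where RNA of the Eif4g3 siRNA arm was always labelled with Cy5 and that of the control arm with Cy3. There was no replicate and no dye swap, so no p-value is given, and the siRNA cannot be told apart from the dye.

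Lamins are intermediate filament proteins that form a meshwork under the inner nuclear membrane. B-type lamins keep a farnesyl anchor at the membrane, while lamin A is farnesylated, trimmed and released from it. Emerin, the lamin B receptor and the lamina-associated polypeptides bind lamins and chromatin, and BAF (Banf1) bridges DNA to proteins with a LEM domain. Eif4g3 encodes a scaffold protein of the cap-binding complex that brings the small ribosomal subunit to an mRNA. An mRNA loaded with many ribosomes sediments with heavy polysomes, and one with few or none stays nearer the top.

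The Eif4g3 ratio (Eif4g3 siRNA channel over control channel, log2) was -0.43 ± 0.16 in the top fraction, -1.06 ± 0.16 in light and -1.77 ± 0.19 in heavy polysomes, so the targeted gene was lower in the siRNA channel on every array. Here and below, the error is the scanner software's error of the spot ratio, combined over the gene's probes, and it covers neither cultures nor arrays. The channels were unequal before normalization: the upper quartile of background-subtracted signal was 40.5 in control and 39.6 in siRNA in the top fraction, 288 and 686 in light, and 1078 and 367 in heavy polysomes. Ratios were centred by loess within each array, which places the median gene near 0, so each value is relative to the other mRNAs of its fraction. Of 8 markers of fibroblastic stroma, 8 were above background on all 3 arrays, with heavy ratios from -0.55 for Col1a1 to 0.37 for Vim. Of markers of other cells, 2 of 6 for endothelium (Kdr and Prox1), 3 of 6 for leukocytes and 0 of 5 for epithelium were measured in heavy polysomes. None was measured on all 3 arrays, and Pecam1, Ptprc and Epcam were measured on none. In pooled cultures, fewer cells of a type and less RNA per cell cannot be told apart.

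Lmnb1, which encodes lamin B1, was 3.15-fold lower in heavy polysomes after Eif4g3 siRNA and was little changed in the top fraction. Its single probe read 795 units of normalized signal in control and 871 in siRNA in the top fraction. Light polysomes gave 1066 in control and 603 in siRNA, and heavy polysomes gave 1474 in control and 468 in siRNA. In the scaling between arrays used here, control signal stepped up from top to light to heavy, and siRNA signal stepped down. With each channel scaled to its own median instead, the siRNA signal of Lmnb1 was higher in heavy than in top, by 0.60 (log2). The median of all genes was then 0.96. The log2 ratios of the probe were 0.13 ± 0.21 in the top fraction, -0.82 ± 0.22 in light and -1.65 ± 0.25 in heavy polysomes. The top value lies within its spot error of 0, and the light and heavy values lie over 2 errors below 0.

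Of 14402 genes measured in heavy polysomes, Lmnb1 ranked 3 from the lowest. Below it lay Bcap29, an endoplasmic reticulum membrane protein gene, at -2.19, and Eif4g3 itself at -1.77. Just above it was Gna14, which encodes a G protein alpha subunit, at -1.47. Lmnb1 ranked 103 from the lowest of 14094 genes in light polysomes (772 without loess and 245 with the scanner software's ratio), and 8104 of 10942 in the top fraction. Before normalization the probe read 5861 in control and 695.5 in siRNA on the heavy array, whose control channel was brighter throughout, and 1273 and 1666 on the light array, whose siRNA channel was brighter throughout. Unnormalized signals therefore do not give the direction on either array, and both ratios rest on the normalization between channels. Without loess, with each array centred on its median, the Lmnb1 ratio was -0.64 in light and -1.88 in heavy polysomes.

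The shift of the ratio from top to heavy was -1.79 ± 0.33 for Lmnb1, which ranked 6 from the lowest of 10720 genes. From light to heavy it was -0.83 ± 0.34, and the remaining -0.95 ± 0.30 lay between top and light. The difference thus built up over both steps of the gradient, by amounts that lie within their combined error of each other. The sizes of the steps depended on loess. The light-to-heavy shift was -1.24 without it, and the ratios were 0.14, -0.64 and -1.88 from top to heavy.

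**Figure D1:**
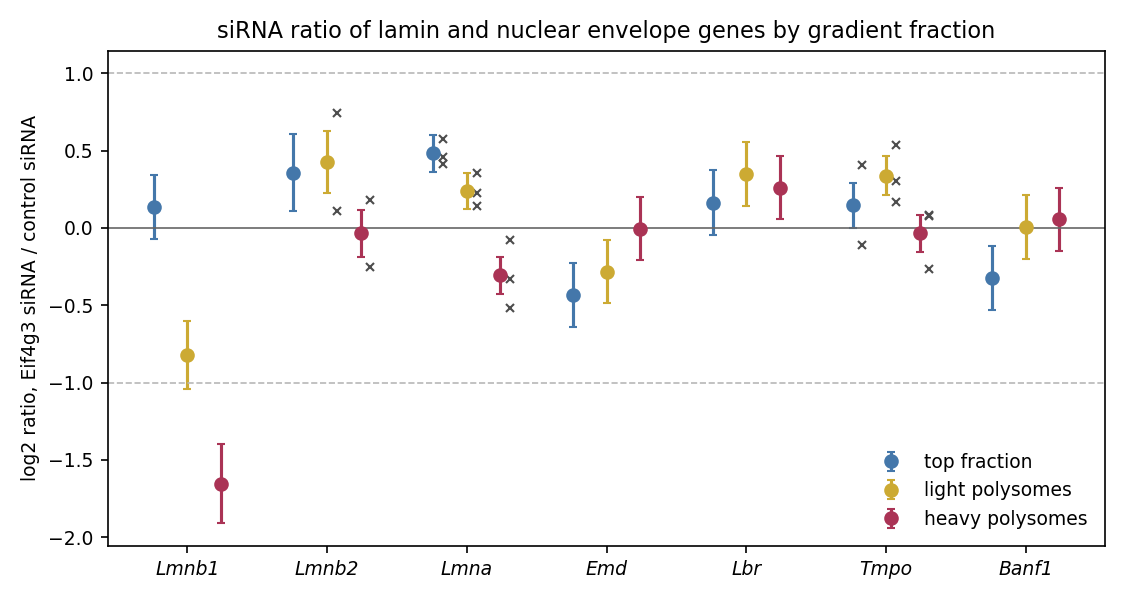
Ratio of the Eif4g3 siRNA to the control channel (log2, vertical axis) for the 7 genes in the top fraction, light and heavy polysomes, 1 array each. Circles are gene means, bars the scanner software's spot error, crosses single probes where a gene has several, and dashed lines 2-fold. Lmnb1 steps down to -1.65 in heavy polysomes, and the other 6 genes stay between -0.43 and 0.48.

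Lmna, which encodes lamins A and C, was the other lamin with a clear step along the gradient. Its 3 probes, annotated in the files to transcript variant 2, lie on the minus strand of chromosome 3 (mm8) at chr3:88569137-88569196, chr3:88569267-88569326 and chr3:88570072-88570591. The last spans 520 genomic bases and the others 60 each. The gene's ratio was 0.48 ± 0.12 in the top fraction, 0.24 ± 0.12 in light and -0.31 ± 0.12 in heavy polysomes. The gene mean was thus above 0 in the top fraction and below 0 in heavy polysomes, by more than its spot error on each side. No value reached 2-fold. The brightest probe alone gave -0.08 ± 0.20 in heavy polysomes, within its spot error of 0.

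The 3 Lmna probes ran the same way. In the top fraction they gave 0.41, 0.46 and 0.57, and in heavy polysomes -0.52, -0.08 and -0.33, naming first the probe that spans 520 bases, then that at chr3:88569137-88569196, then the remaining one. The heavy-minus-top shift was -0.93 ± 0.30, -0.53 ± 0.29 and -0.90 ± 0.29 in that order. Every probe shifted down by more than its error, and the shifts lay within their combined errors of about 0.4 of each other. Averaged over probes, the shift was -0.79 ± 0.17, rank 248 from the lowest of 10720 genes.

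Lmnb2, the gene of the other B-type lamin, stayed within 2-fold in each fraction. Its ratio was 0.36 ± 0.25 in the top fraction, 0.42 ± 0.20 in light and -0.04 ± 0.15 in heavy polysomes. Both probes are on the minus strand of chromosome 10 (mm8). The probe at chr10:80304501-80304560 gave 0.36, 0.74 and 0.18 from top to heavy. The other, at chr10:80307128-80307263, was not well above background in the top fraction and gave 0.11 in light and -0.25 in heavy polysomes. The 2 Lmnb2 probes differed by 0.64 in light polysomes, more than either spot error, so the gene's ratio there is uncertain. The heavy-minus-light shift of Lmnb2 was -0.46 ± 0.25. Its heavy-minus-top shift was -0.18 ± 0.32, but -0.59 with no offset and -0.51 with the scanner software's ratio.

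Set against each other within an array, Lmnb1 lay below Lmnb2 by a log2 difference of -1.62 ± 0.30 in heavy and -1.25 ± 0.30 in light polysomes. In the top fraction the difference was -0.22 ± 0.32, within its spot error. The Lmnb2 ratio there rests on 1 probe, and was 0.82 with no offset and 0.76 with the scanner software's ratio. Lmnb1 then read 0.18 and 0.17, so the top difference depends on the processing. Against Lmna, Lmnb1 differed by -1.35 ± 0.28 in heavy, -1.06 ± 0.25 in light and -0.35 ± 0.24 in the top fraction. Lmnb1 therefore lay below both other lamin genes in light and heavy polysomes. The heavy differences use the Lmnb1 value on which the group was chosen, so they are a description only. Without loess the light ratios were -0.64 for Lmnb1, 0.17 for Lmnb2 and 0.65 for Lmna. In the heavy-minus-light shift Lmnb1 differed from Lmnb2 by -0.37 ± 0.42 and from Lmna by -0.29 ± 0.38, both within error.

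**Figure D2:**
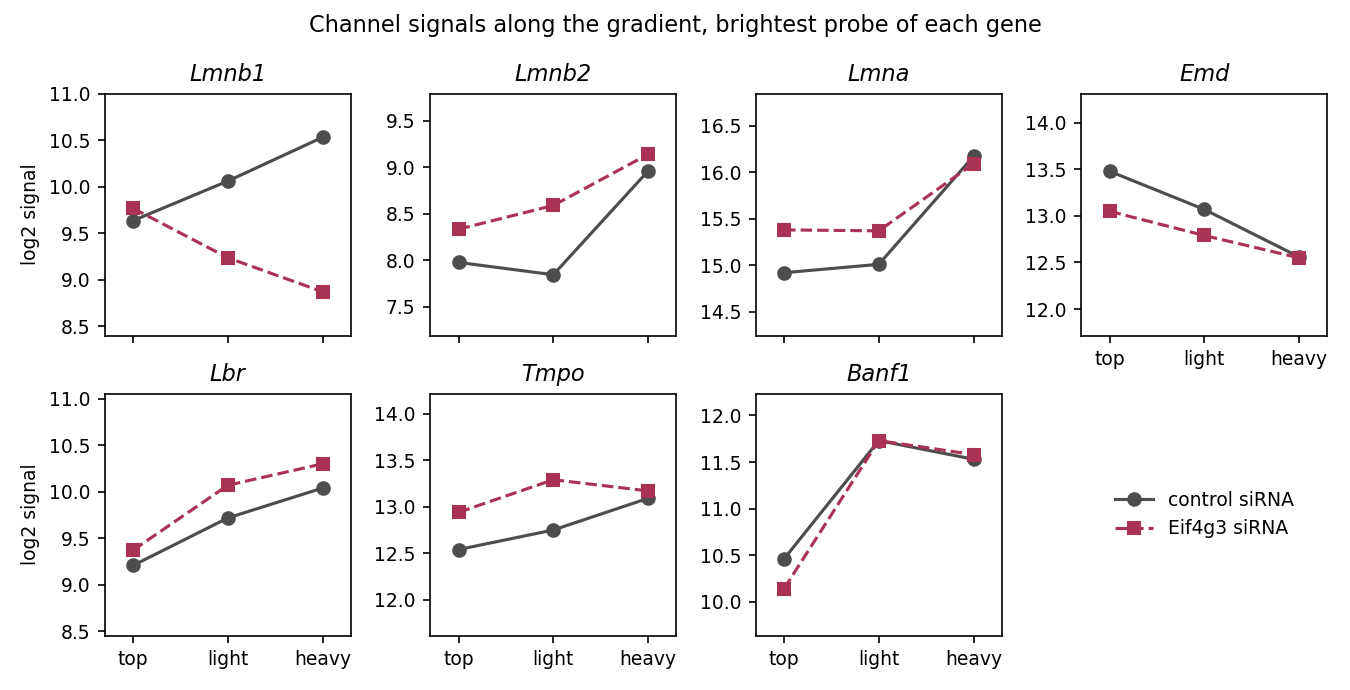
Normalized log2 signal (vertical axes of equal height) of the brightest probe of each gene in control siRNA (grey circles) and Eif4g3 siRNA (red squares) along the top, light and heavy fractions, 1 array each. The lines part for Lmnb1, where control goes from 9.64 to 10.53 and siRNA from 9.77 to 8.87. The direction of the siRNA line of Lmnb1 depends on the scaling between arrays. For the other genes both channels change in the same direction from top to heavy.

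The membrane and chromatin partners all lay nearer to 0 than Lmnb1 in both polysome fractions. Emd encodes emerin, a LEM-domain protein of the inner membrane, and its probe lies at chrX:70510355-70510414 (mm8). Its ratio was -0.43 ± 0.21 in the top fraction, -0.28 ± 0.21 in light and -0.01 ± 0.20 in heavy polysomes. The order is the reverse of that of Lmnb1 and Lmna, with a heavy-minus-top shift of 0.43 ± 0.29. Each single step lay within its error, at 0.15 ± 0.29 from top to light and 0.28 ± 0.29 from light to heavy. Without loess the order was lost, with -0.46, 0.06 and -0.12 from top to heavy. In the normalized signals, control and siRNA were 11463 and 8490 in the top fraction and 6026 and 6003 in heavy polysomes, so the channels met in the heavy fraction.

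Lbr encodes the lamin B receptor, an inner membrane protein that also has sterol reductase activity. Its probe at chr1:183652437-183652496 (mm8) gave 0.16 ± 0.21 in the top fraction, 0.35 ± 0.21 in light and 0.26 ± 0.20 in heavy polysomes. Lbr, the receptor named for its binding of B-type lamins, was above 0 in the same heavy array where Lmnb1 was at -1.65, and its heavy-minus-top shift was 0.10 ± 0.29. Banf1, at chr19:5365072-5365131 (mm8), gave -0.32 ± 0.21, 0.01 ± 0.20 and 0.05 ± 0.20 from top to heavy. Its shift from top to heavy was 0.38 ± 0.29, close to that of Emd.

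Tmpo encodes the LAP2 proteins, which exist as several isoforms, and has 4 probes on the minus strand of chromosome 10 (mm8). Over its measured probes the gene's ratio was 0.15 ± 0.15 in the top fraction, 0.34 ± 0.13 in light and -0.03 ± 0.12 in heavy polysomes. The probe annotated to transcript variant 6, at chr10:90587298-90587357, was not well above background on any array. That of variant 1, at chr10:90591734-90591793, was measured in light polysomes at 0.30 and in heavy polysomes at 0.08.

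The other Tmpo probes are annotated to variant 3. The one at chr10:90579281-90579340 gave -0.11, 0.17 and -0.26 from top to heavy, and the one at chr10:90577428-90577487 gave 0.40, 0.54 and 0.08. They differed from each other by 0.52 in the top fraction, yet both were highest in light and lowest in heavy polysomes, with heavy-minus-light shifts of -0.43 ± 0.29 and -0.45 ± 0.29.

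By order in heavy polysomes, the ratios ran Lmnb1, Lmna, Lmnb2, Tmpo, Emd, Banf1 and Lbr from low to high. Lmnb1 and Lmna were 1.35 ± 0.28 apart and Lmna and Lmnb2 0.27 ± 0.19 apart. From Lmnb2 up to Lbr, no neighbours differed beyond their combined error. In light polysomes Lmnb1 was again lowest, 0.54 ± 0.30 under Emd. In the top fraction Emd and Banf1 were lowest, and Banf1 lay 0.46 ± 0.29 under Lmnb1.

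Lmnb1 was the 1 member past 2-fold lower in heavy polysomes, where 0.306% of 14402 genes passed that fold lower and 0.507% higher. It was likewise the 1 member past 2-fold lower in the heavy-minus-top shift, where 0.700% of genes were lower and 0.812% higher. No member passed 2-fold in the top fraction, with 0.265% of genes lower and 0.430% higher, or in light polysomes, with 0.291% lower and 0.397% higher. None passed it in heavy minus light, where 0.628% of genes were lower and 0.102% higher; without loess, Lmnb1 did at -1.24. The split of calls depended on loess. Without it, 28 genes were lower and 153 higher in light polysomes, against 41 and 56. In heavy minus top, 172 were lower and 101 higher, against 75 and 87, and in heavy minus light 433 and 1127, against 86 and 14. These shares stand beside a count that the choice of members fixed, and nothing is read from them.

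The median of the 7 members was 0.15 in the top fraction, 0.24 in light and -0.03 in heavy polysomes, beside 0.00, 0.02 and -0.01 for all genes measured. In the top fraction 5 of 7 were above 0, beside 5515 of 10942 genes measured. In light polysomes 5 of 7 were above 0, beside 7412 of 14094 genes. In heavy polysomes 5 of 7 were below 0, beside 7449 of 14402 genes. Of these 5, Lmnb2, Tmpo and Emd lay within their spot error of 0, and Tmpo and Emd were above 0 with the scanner software's ratio. In heavy minus light, 5 of 7 were below 0, beside 7243 of 13688 genes. The median was -0.37, beside -0.02 for all genes. Emd and Banf1 were above 0 in that difference, but lay at -0.18 and -0.40 without loess, where 7 of 7 were below 0.

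Position along the gradient was also read within each channel, as heavy over top signal after the channels of all 3 arrays were set to a common distribution. In control cells Lmnb1 stood at 0.89 (log2), above 83.5% of 10720 genes, and in Eif4g3 siRNA cells at -0.90, above 23.4%. Lmna stood at 1.52 in control, above 94.3% of genes, and at 0.73 in siRNA cells, above 79.8%. Lmnb1 thus went from the heavy side of the gene distribution to the light side, whereas Lmna stayed on the heavy side. The difference between the channels is the ratio shift already given and adds no further evidence.

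The other members kept their side. Lmnb2 was at 0.98 in control and 0.80 in siRNA cells, Lbr at 0.83 and 0.93, Tmpo at 0.82 and 0.58, and Banf1 at 1.07 and 1.45. Emd was the 1 member on the light side in control cells, at -0.93, and was at -0.50 in siRNA cells. In control cells Lmna and Banf1 passed 2-fold higher in heavy over top, beside 14.2% of all genes, and in siRNA cells Banf1 alone did, beside 13.3%. In control heavy over light signal, Lmna stood above 98.4% of 13688 genes, at 1.24. These positions depend on the scaling between arrays: with each channel scaled to its own median, all genes moved up to a median of 0.91 in control from -0.12, and Emd read 0.44, still below that median. In siRNA cells Lmnb1 then read 0.60 in place of -0.90, above 39.7% of genes and below the median of 0.96.

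**Figure D3:**
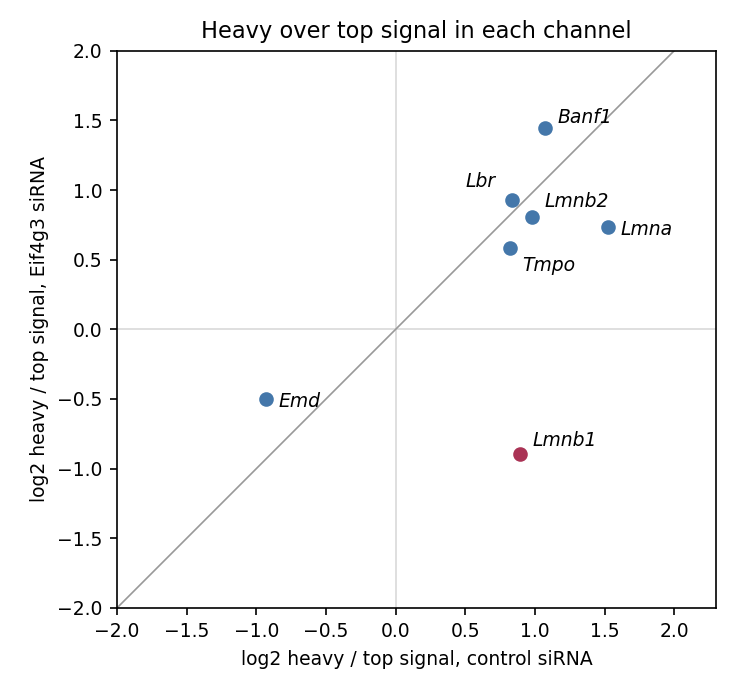
Log2 heavy over top signal in control siRNA cells (horizontal) against Eif4g3 siRNA cells (vertical), 1 point per gene, with the line of equal values. Lmnb1 (red) lies at 0.89 and -0.90, far below the line, Lmna lies below it at 1.52 and 0.73, and the other 5 genes lie nearer to it. With each channel scaled to its own median, Lmnb1 would lie at 2.34 and 0.60.

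A wider set of 67 genes in 5 lists places the members among other parts of the nuclear envelope. The nuclear pore list, of proteins that build the channel through both membranes, had 30 of 31 genes measured in light and in heavy polysomes. In light polysomes 23 of 30 were above 0, beside 7412 of 14094 of all genes, with a median of 0.23. In heavy polysomes 24 of 30 were below 0, beside 7449 of 14402, with a median of -0.15. In heavy minus light, 27 of 30 were below 0, beside 7243 of 13688. The median there was -0.43, beside -0.02 for all genes. No pore gene passed 2-fold in any of these comparisons. Without loess 5 did in heavy minus light, all lower, and 1 did with no offset or with the software's ratio. In the top fraction and in heavy minus top, the software's ratio put 1 gene past 2-fold in each direction and no offset put 1 past it in each comparison, lower in the top fraction and higher in heavy minus top. The lowest in heavy polysomes was Aaas, which encodes aladin, at -0.65 ± 0.21, and the highest was Gle1, an mRNA export factor, at 0.47 ± 0.15. Both moved nearer to 0 with no filter on dim probes, Aaas to -0.32 and Gle1 to 0.30. In the top fraction 24 pore genes were measured, 14 below and 10 above 0, with a median of -0.04.

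The LINC complex joins the lamina to the cytoskeleton through SUN proteins of the inner and nesprins of the outer membrane. Of 6 listed genes, 4 were measured in light and heavy polysomes. Sun1 was at 0.60 ± 0.21 in light and 0.16 ± 0.20 in heavy polysomes. Sun2 was at 0.08 ± 0.14 in light and -0.30 ± 0.15 in heavy polysomes. In heavy minus light, 4 of 4 were below 0, between -0.44 and -0.35. Without loess, 3 of 4 were below 0, with Sun1 at -0.86 and Sun2 at -0.76.

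Among proteins that process lamins, 5 of 7 genes were below 0 in heavy polysomes, with a median of -0.05. The split turned with the scanner software's ratio, to 2 below and 5 above 0 with a median of 0.02, and was 6 below without loess. The lowest was Zmpste24, the protease that trims prelamin A, at -0.07 ± 0.15 in the top fraction, -0.14 ± 0.14 in light and -0.59 ± 0.15 in heavy polysomes. Narf, which binds prelamin A, was the highest at 0.19 ± 0.16. In heavy minus top, 4 of 6 genes were below 0, with a median of -0.07. Zmpste24 was at -0.51 ± 0.21, whereas Rce1, which cleaves the end of farnesylated proteins, was at 0.46 ± 0.21 and Casp6, a caspase that cuts lamins, at 0.31 ± 0.39.

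Of 13 other inner membrane and LEM genes, 11 were measured in heavy polysomes, 7 below and 4 above 0, with a median of -0.18. Tor1b, a torsin ATPase of the nuclear envelope, passed 2-fold lower in light polysomes at -1.02 ± 0.22, and was at -0.68 ± 0.22 in the top fraction and -0.56 ± 0.21 in heavy polysomes. Without loess its light ratio was -0.76. Tor1aip1, which activates torsins at the inner membrane, was at 0.82 ± 0.22 in light and 0.31 ± 0.21 in heavy polysomes. These are the lowest and highest of the list in heavy polysomes. Their relatives Tor1a and Tor1aip2 were at 0.10 ± 0.21 and -0.53 ± 0.21 there.

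The list of lamina-associated chromatin proteins and kinases divided evenly in heavy polysomes, 5 below and 5 above 0. Gmcl1, a germ cell-less homolog that binds LAP2 and emerin, passed 2-fold higher there at 1.06 ± 0.22, after 0.29 ± 0.21 in the top fraction and 0.40 ± 0.21 in light polysomes. With the scanner software's own ratio it was 0.96 in heavy polysomes, and without loess 0.84, both short of 2-fold. Rb1, the retinoblastoma pocket protein that binds lamin A with LAP2alpha, was lowest at -0.33 ± 0.21. Over all 5 lists, 44 of 62 genes were below 0 in heavy polysomes, beside 7449 of 14402 of all genes measured. In light polysomes 41 of 62 were above 0, beside 7412 of 14094. The medians of the lists were -0.14 and 0.16. No gene of the 5 lists came near the heavy ratio of Lmnb1, the lowest of them being Aaas. Lmnb1 was chosen for its low heavy ratio, so nothing is read from that gap. With no filter on dim probes, Aaas was at -0.32, above Zmpste24 at -0.59.

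**Figure D4:**
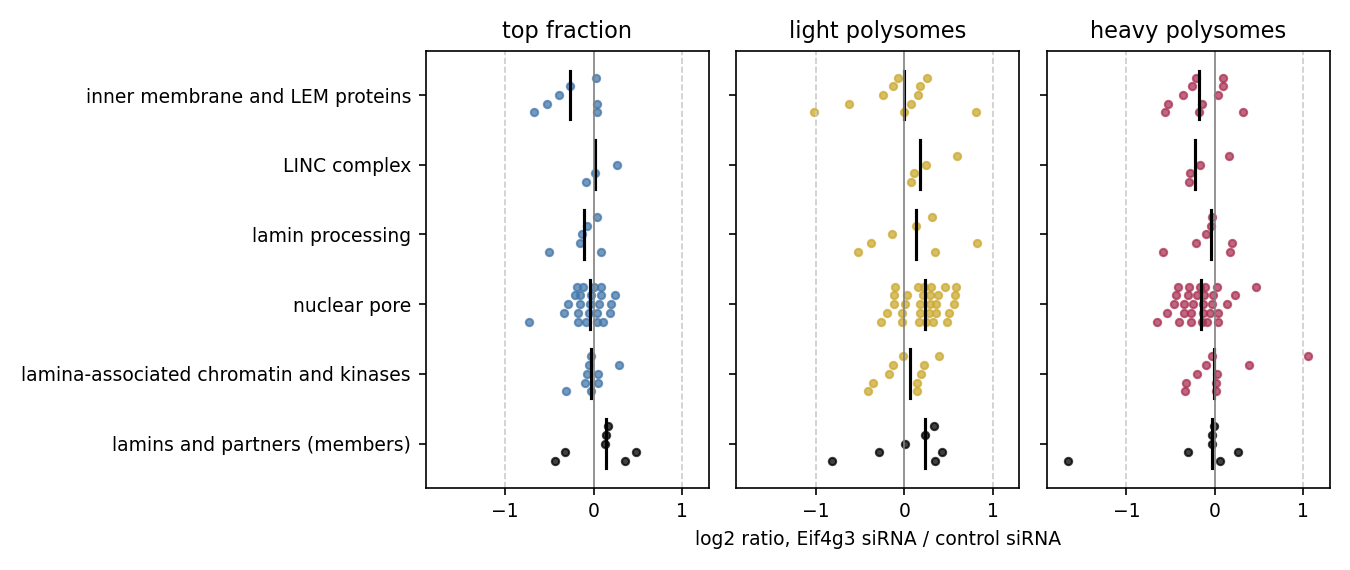
Ratio of the Eif4g3 siRNA to the control channel (log2, horizontal) of each measured gene in 5 nuclear envelope lists and the 7 members, in panels for the top fraction, light and heavy polysomes. Points are genes, black bars medians and dashed lines 2-fold. Nuclear pore genes lie mostly above 0 in light (median 0.23) and mostly below 0 in heavy polysomes (median -0.15). Lmnb1, chosen for its low heavy ratio, lies at -1.65 there.

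The genes most like Lmnb1 were sought among 3774 genes that were measured on all 3 arrays, had a signal at or above the median and carried a gene symbol. Likeness was the Euclidean distance between the 3 log2 ratios. The nearest was Ddit4, a stress-induced inhibitor of mTORC1, at a distance of 0.34, with -0.07 in the top fraction, -1.03 in light and -1.47 in heavy polysomes. Eno1, the glycolytic enolase, followed at 0.35, with 0.38, -0.69 and -1.43. Sympk, a scaffold of mRNA 3′ end processing, lay at 0.56, Cndp2, a dipeptidase, at 0.61, and Eif4g3 at 0.62. No member of the nuclear envelope group was among these 5 genes. Lmnb1 was chosen for its low heavy ratio, and the next lowest member there was Lmna at -0.31, so nothing is read from that absence. Each likeness rests on 3 arrays of 1 experiment.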

How the data were processed

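Per the labels, 200 ng of total RNA per sample was amplified and labelled. The deposited scanner files hold an intensity per spot and channel, with a log10 ratio, its error and flags. Per the file headers, Agilent's Feature Extraction 10.5.1.1 wrote them. The authors also deposited a table of log2 ratios, equal to the software's processed red over green signal (largest difference 2.76e-06), with column medians of -0.09, -0.01 and 0.22. Any further centring is not given in the labels or headers used here.

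Here, limma 3.58.1 (R 4.3.3) corrected background by normexp with an offset of 50 and normalized by loess within arrays, with control spots at weight 0. Outlier spots were left out (220 in the top fraction, 170 in light and 183 in heavy polysomes), and no spot was saturated. The offset draws dim ratios towards 0: slopes on the software's ratios were 0.571, 0.718 and 0.721. Only probes well above background in both channels were used, and a gene is their mean. Channel signals were scaled across arrays by Aquantile, and "called" means past 2-fold. Background correction and loess were tested on simulated data, and the filter, gene means and scaling across arrays were not.

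The members, lists and rule for named genes (every member, Eif4g3, each list's extremes in heavy polysomes and genes past 2-fold, and the 5 genes nearest Lmnb1) were chosen with earlier results of these data known. Repeated spots differed by a median SD of 0.06, 0.05 and 0.09 (log2). Alternatives are given in the closing section. Probe coordinates are on mm8 (NCBI36), per the file headers. Probe and protein sequences were not used here.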

Additional observations from a re-analysis of the deposited data

Results flagged for a closer look

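Lmnb1 had a ratio of 0.13 ± 0.21 in the top fraction and of -1.65 ± 0.25 in heavy polysomes. The signs are opposite and the difference, -1.79 (log2), is over 2 spot errors. With 1 array per fraction this difference was not tested, and the top value lies within its spot error of 0. Over the 7 alternatives run, the difference lay between -2.02 and -1.79. It rests on 1 probe, so the alternatives that filter or pick probes, or take their median, returned the reported -1.79. Those alternatives are no check of it. Only no offset, the scanner software's ratio and no loess could move the difference, and each gave a lower value.

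Lmna went from 0.48 ± 0.12 in the top fraction to -0.31 ± 0.12 in heavy polysomes, a difference of -0.79 (log2) with opposite signs. This difference was not tested either. All 3 probes ran the same way, and over the 7 alternatives the difference lay between -0.90 and -0.53. The slope of ratios on the software's own ratios was 0.571 on the top array and 0.721 on the heavy array, and its part in these differences was not tested.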

How the results depend on the processing

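Each of 7 alternatives for the ratios (no offset, the scanner software's ratio, no loess with median centring, no filter on dim probes, bright probes only, the median of probes, the brightest probe) and 3 for channel signals was run. The lists, the genes named from them and Eif4g3 were added after seeing the data. No called value reversed. Of 111 medians and counts, 108 stayed within their limits and 3 moved. Without loess, 1 member (Lmnb1, -1.24) passed 2-fold lower in heavy minus light, against 0. With each channel scaled to its median, 6 members passed 2-fold higher in control heavy over top, against 2, and the members' median was 2.26, against 0.89. The cause was not tested, although that scaling moved the median of all genes from -0.12 to 0.91. Of 785 values of single genes and list medians, 82 moved by more than their spot error (for a list, its genes' median spot error). Where a gene has 1 measured probe, the median of probes equals the reported value. For a gene with 1 probe in all, the alternatives that filter or pick probes also return it. Such values could not move, so the share that stayed is not a measure of stability. Counts of all genes past 2-fold, lower and higher, ranged from 21 to 146 and 35 to 151 in the top fraction (29 and 47 as reported). They ranged from 28 to 156 and 43 to 153 in light (41 and 56), and from 36 to 124 and 59 to 252 in heavy polysomes (44 and 73). For heavy minus top they ranged from 67 to 172 and 77 to 301 (75 and 87), and for heavy minus light from 64 to 433 and 11 to 1127 (86 and 14). Lmnb1 ranked 3 to 8 from the lowest in heavy and 91 to 772 in light polysomes. Signs changed under at least 1 alternative for Lmnb2, Tmpo, Emd and Banf1 in heavy polysomes, Emd and Banf1 in light polysomes and in heavy minus light, Lbr in heavy minus top, and Emd in control heavy over top. In siRNA heavy over top, Lmnb1 and Emd changed sign with each channel scaled to its median, to 0.60 and 0.91. No paired analysis was possible because each fraction has 1 array. Precision is limited by 1 array per fraction, 4 members with 1 probe, and dim signal on the top array, where 15283 of 43379 probe spots were well above background in both channels.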
